A study of Drosophila melanogaster with 20 samples.

Results

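Ageing of the fly brain in the absence of miR-34 was followed by setting 5 arrays of miR-34 null brains at 20 d against 5 arrays of miR-34 null brains at 3 d. These 10 arrays, picked by their titles, belong to a series of 20, and every probe set other than the controls of the array was considered. The null flies carry the line label 0110 at both ages. The other 10 arrays hold brains of wild-type flies with the line label 5905, 5 at 20 d and 5 at 3 d, and served to ask where ageing in the null line differed. Both lines were raised on standard cornmeal medium and aged naturally. Brains were dissected, and total RNA was extracted, labelled with biotin and hybridised to Affymetrix Drosophila 2 arrays, 1 sample per array. Each genotype is represented by 1 line, so that the null allele and other differences between the lines cannot be told apart. Whether the 5 repeats of a group stem from separate pools of flies is not stated, so p-values cover the spread between these arrays alone, which may be technical.

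MicroRNAs are short RNAs that pair with messenger RNAs and lower their output. In the fly, miR-34 accumulates in the adult brain with age, and flies without it are known for early brain degeneration and a shortened life. Ageing flies of normal genotype are known for a rise of innate immune genes and a fall of genes for mitochondrial respiration.

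Values are signals in arbitrary units, as deposited, with the same trimmed mean on every array. Fold changes are on the scale log2(signal + 16), which understates the change of dim genes, and stand with their standard error after the sign ±, whereas signals stand with their SD over 5 arrays. A gene is called higher or lower, or said to rise or fall, where its Benjamini-Hochberg adjusted p in limma was under 0.05, and it is represented by the probe set of highest mean signal. Of 18769 probe sets, 9806 lay above the median of their array in at least 5 of the 20 arrays, and these stood for 7704 genes. Precision is limited by there being 5 arrays a group. The median signal of an array was 21.1 to 23.1 in 20 d null, 20.8 to 21.8 in 3 d null, 23.3 to 25.0 in 20 d wild type and 19.1 to 21.4 in 3 d wild type. RNA quality was read from GAPDH control probe sets, whose log2 ratio of 3' over 5' signal was 0.93 ± 0.05 in 20 d null, 0.88 ± 0.06 in 3 d null, 0.89 ± 0.05 in 20 d wild type and 0.82 ± 0.03 in 3 d wild type (SD, n = 5 each). The same ratio averaged 1.72 and 1.69 for eIF-4a and 1.17 and 1.18 for actin in 20 d and 3 d null, against 1.64 and 1.62 for eIF-4a and 1.05 and 1.14 for actin in 20 d and 3 d wild type. As a check of the tissue, the neuronal RNA-binding protein gene elav stood at 1040 ± 162 units in 20 d null and 1070 ± 97.4 in 3 d null, and the glial transcription factor gene repo at 890 ± 60.2 in 20 d null and 826 ± 29.9 in 3 d null. These 2 genes mark nervous tissue but do not show that it is brain alone or that its make-up was equal. In the wider lists given below, 10 of 18 neuron markers and 16 of 27 glial genes were lower at 20 d null, and 2 and 4 were higher. Of all genes tested, 26.4% were lower and 33.8% higher. The null genotype itself was not checked, since mir-34 was not analysed here.

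The first question was which genes differ between old and young brains of the null line. Immune, haemocyte, detoxification and fat body genes led the rise, while respiratory chain genes and most neuronal gene families held more falls than rises. Of the 7704 genes, 2603 were called higher at 20 d, which is 33.8% of the genes tested, and 2032 were called lower, which is 26.4%. Changes of at least 2-fold were fewer, with 250 genes higher (3.25%) and 114 lower (1.48%). The 5 arrays of 20 d null did not overlap the 5 of 3 d null in 42% of the genes tested. The median change of all genes was 0.03. The arrays of 20 d null correlated with each other at Pearson's r of 0.989 to 0.997 across the probe sets tested, and those of 3 d null at 0.992 to 0.997. Between the ages the correlation was 0.948 to 0.959.

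The second question was how far the wild-type line changed in the same way. In wild type, 32.6% of genes were called higher at 20 d and 25.8% lower. Of the 2603 genes that rose in null, 1890 also rose in wild type and 53 fell there. Of the 2032 genes that fell in null, 1439 also fell in wild type and 136 rose there. The changes of null and of wild type correlated at Pearson's r = 0.577 and Spearman's rho = 0.759 across the 7704 genes, which do not count as replicates, and no array enters both comparisons. The direct test is the interaction, which subtracts the wild-type change from the null change. It was higher for 597 genes (7.75% of those tested) and lower for 784 (10.2%). This split depends on scaling and on the filter: over probe sets the interaction was higher for 746 (7.61%) and lower for 920 (9.38%), with arrays centred on their medians it was higher for 2623 and lower for 556, after quantile normalization for 982 and 908, and with no filter for 745 and 1165. The centring moved the median interaction of all probe sets to 0.13, against 0.01 without it, so single interactions are to be read relative to that shift.

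**Figure D1:**
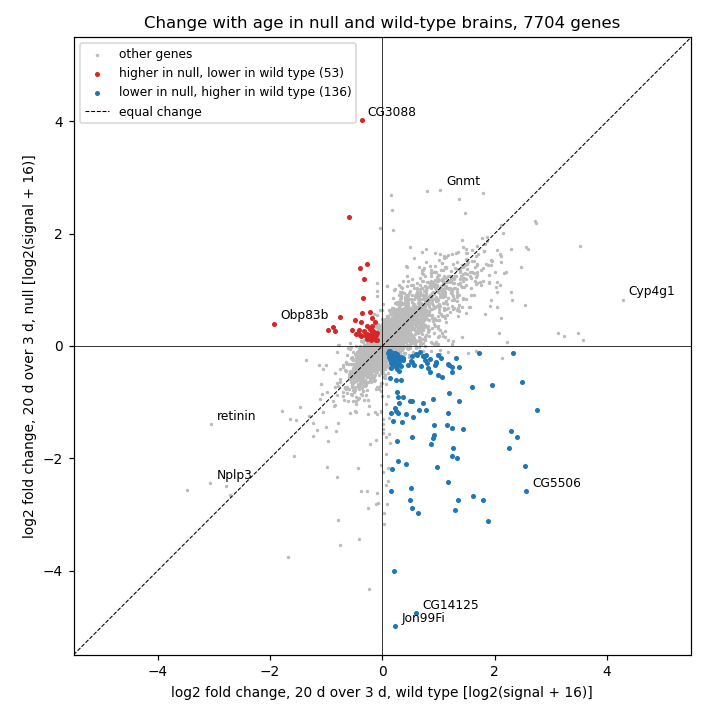
Each point is 1 of 7704 genes, with its log2 fold change, 20 d over 3 d, in null on the vertical axis and in wild type on the horizontal axis, both on the log2(signal + 16) scale. The 136 genes that fell in null and rose in wild type (blue) reach far below the diagonal, down to CG14125 and Jon99Fi, and the 53 that rose in null and fell in wild type (red) reach up to CG3088. Both Jon99Fi and CG3088 were dim in wild type at both ages, so their wild-type calls rest on dim signals.

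The large falls of the null line had few counterparts of like size in wild type. Of the 250 genes at least 2-fold higher in 20 d null, 160 were at least 2-fold higher in 20 d wild type too, which is 64% of the null list and 54.4% of the 294 genes of the wild-type list. Of the 114 genes at least 2-fold lower in 20 d null, 17 were at least 2-fold lower in 20 d wild type, which is 14.9% of the null list and 68.0% of the 25 genes of the wild-type list. The interaction was called lower for 100 of the 114. In wild type, 49 of the 114 were called higher, 39 lower and 26 neither. For 42 of the 114, only the arrays of 3 d null lay above the array median, so these 42 had to be lower at 20 d. Below the median in wild type at both ages, these 42 had little room for a like fall there. The filter thus favoured both the small overlap and the lower interactions, and no support is read from either for these 42. Their wild-type calls rest on signals below the array median, so no opposite change with age is read from them. Genes known only by a CG or CR number made up 57.9% of the 114 and 43.6% of the 250, against 34.5% of all genes tested.

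The largest rise was that of CG3088. Its signal was 253, 239, 256, 266 and 279 units in the 5 arrays of 20 d null, against 0.498, 0.977, 0.472, 1.87 and 0.595 in those of 3 d null. It was thus at the bottom of the scale in all 5 young arrays and bright in all 5 old ones, and without the 20 d null arrays it would have failed the filter. The difference on the log2 scale was 4.02, given as a description. In wild type CG3088 was dim at both ages, with 3.61 ± 1.48 units at 20 d and 9.25 ± 0.905 at 3 d.

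Gnmt encodes glycine N-methyltransferase, which uses S-adenosylmethionine to methylate glycine. It had 1357, 1223, 1204, 1276 and 1307 units in 20 d null, against 170.4, 167, 167, 174 and 177 in 3 d null. The old arrays lay far above the young ones, and the change was 2.78 ± 0.04 (adjusted p = 1.18e-24 by limma). Wild type showed 1.03 ± 0.04, and the difference between the lines was 1.76 ± 0.06 (adjusted p = 7.74e-18 by limma). Sardh, whose enzyme turns the methylated product of Gnmt back into glycine, was at 61.5 ± 4.68 in 20 d null and 7.79 ± 1.11 in 3 d null, a rise of 1.70 ± 0.05.

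Arc2, a gene of the Arc family that descends from a retrotransposon capsid gene, had 690.2, 606, 604, 690.1 and 670.0 units in 20 d null, against 93.7, 99.9, 88.0, 89.8 and 92.3 in 3 d null. No array overlapped between the ages, and Arc2 rose by 2.62 ± 0.05 in null, against 1.36 ± 0.05 in wild type (interaction adjusted p = 2.77e-13 by limma). Its relative Arc1 rose by 0.70 ± 0.05 in null and by 0.59 ± 0.05 in wild type. Both belong to a list of 15 activity-linked genes, of which 5 rose and 4 fell in null. Among the 4 was Hr38, a nuclear receptor gene that neuronal activity is known to induce, at 328 ± 55.0 units in 20 d null and 418 ± 61.4 in 3 d null, with overlapping arrays. A second, dim probe set of Hr38 was not called, at -0.20 (adjusted p = 0.128 by limma).

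The other genes among the 10 highest were CG8620 (2.76), Listericin (2.73), CG9377 (2.69), CG14419 (2.43), Ance-3 (2.36), CG8343 (2.31) and CG4408 (2.23), given as log2 fold changes. Ance-3 belongs to the family of angiotensin-converting enzymes and rose by 1.47 in wild type too. CG9377 was at 490.4 ± 12.9 units in 20 d null and 62.5 ± 4.86 in 3 d null, whereas wild type had 785 ± 31.9 at 20 d and 702 ± 29.4 at 3 d. The null line was thus dim in CG9377 when young and nearer to wild type when old. CG14419 would have failed the filter without the 20 d null arrays. CG4408 averaged 298 ± 11.7 units in 20 d null, and 20 d wild type averaged 299 ± 23.6, a gap smaller than the spread of the arrays.

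**Figure D2:**
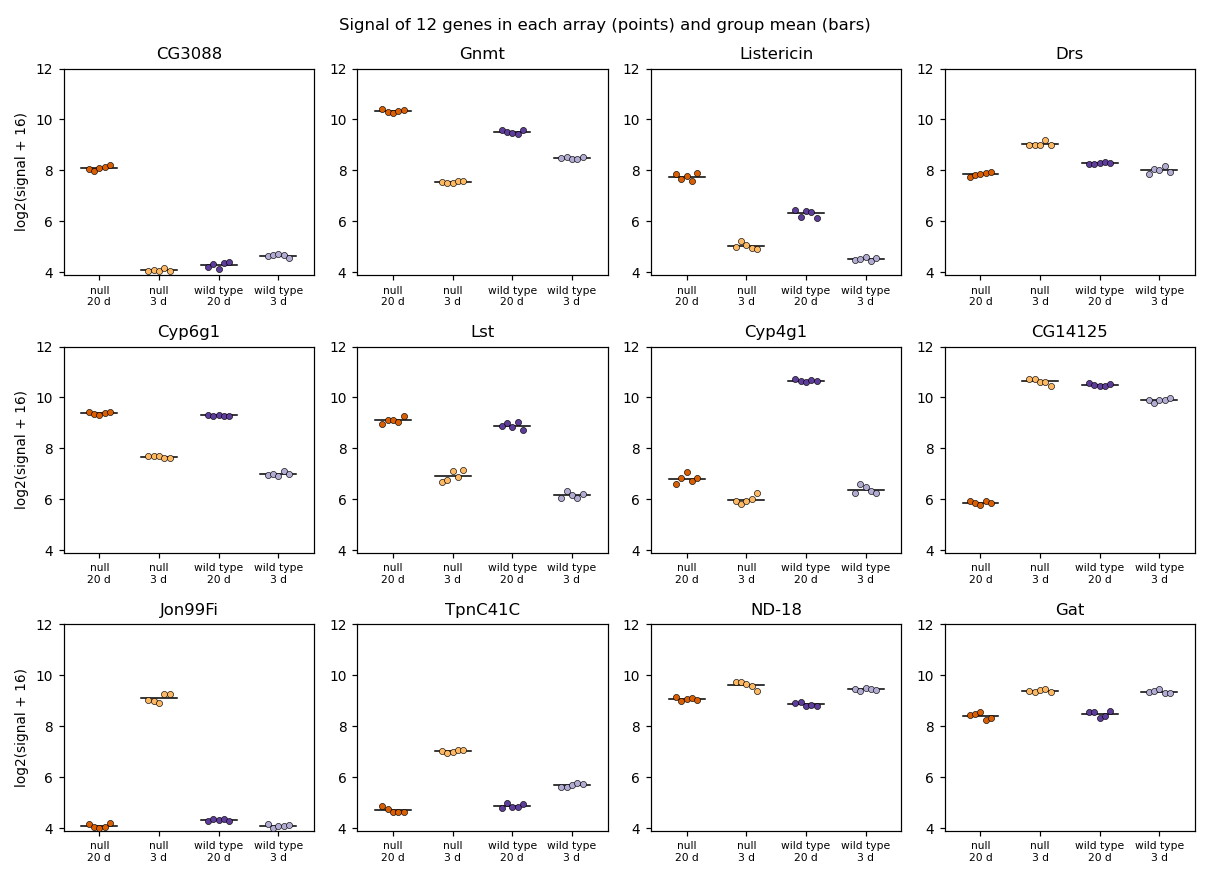
Signals of 12 genes in each array, on the log2(signal + 16) scale, with 20 d null, 3 d null, 20 d wild type and 3 d wild type from left to right, 5 arrays in each group and a bar at each group mean. CG14125 is low only in 20 d null and Jon99Fi is high only in 3 d null, while Gnmt, Listericin, Cyp6g1 and Lst are higher at 20 d in both lines.

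The lowest gene was Jon99Fi, 1 of the Jonah serine proteases, which digest protein in the gut. It had 2.01, 0.656, 0.129, 0.674 and 2.39 units in 20 d null, against 502, 488, 467, 603 and 604 in 3 d null, a difference of -4.99, given as a description. All young null arrays were bright and all old null arrays were at the bottom of the scale. In wild type it was near the bottom at both ages, with 3.99 ± 0.587 at 20 d and 1.06 ± 0.573 at 3 d. Jon25Biii (-4.01), Jon65Aiii (-3.77), yip7 (-3.55) and alphaTry (-3.43), all serine protease genes of the gut, were among the 10 lowest genes too. Wild type was not flat for all of them. Their interactions were -4.22, -2.08, -2.79 and -3.03, so that part of the change of Jon65Aiii in particular was seen in wild type too.

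Of 40 digestive enzyme genes on the array 16 were tested, and 15 fell while 1, Ser7, rose by 0.85. No support is read from that count, since 11 of the 16 would have failed the filter without the 3 d null arrays. Summed over all 40 members, the signal was 322 to 347 units in 20 d null, 3240 to 3300 in 3 d null, 277 to 305 in 20 d wild type and 276 to 293 in 3 d wild type. Among the 4 groups, 3 d null thus stood alone. The gut lipase gene mag (-2.19) would also have failed the filter without those arrays. The digestive genes mark a tissue other than brain, and the part of tissue content in their change was not tested. In bulk samples, moreover, fewer cells of a type and less RNA per cell cannot be told apart, here and for every cell type below.

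Other large falls were of genes outside the digestive enzyme list. CG14125 had 44.7, 42.1, 38.6, 44.8 and 41.3 units in 20 d null, against 1694, 1655, 1559, 1551 and 1383 in 3 d null. The ages lay far apart, at a change of -4.76 ± 0.05 (adjusted p = 2.36e-27 by limma). Wild type had 1425 ± 50.7 units at 20 d and 930.2 ± 44.5 at 3 d, so that for this gene 20 d null stood alone. Muc68D, which encodes a mucin, was at 154 ± 3.82 in 20 d null and 1321 ± 81.4 in 3 d null, a change of -2.97 ± 0.05, against a rise of 0.63 ± 0.05 in wild type. CG5399 fell by 3.11 in null and rose by 1.89 in wild type, CG5506 fell by 2.59 and rose by 2.56, and CG11672 fell by 2.15 and rose by 2.54. With CG14125 and Jon99Fi, these genes had the 5 lowest interactions of all genes called. The other members of the 10 lowest changes in null were CG3819 (-4.32), CG8562 (-3.17) and CG11458 (-3.09).

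Fewer genes turned the other way. CG8343 rose by 2.31 in null and fell by 0.60 in wild type. The odorant-binding protein gene Obp83b was dim in null at both ages, with 9.71 ± 2.78 units at 20 d and 3.41 ± 0.853 at 3 d, and its interaction of 2.32 came mainly from wild type, with 15.5 ± 1.39 at 20 d and 103 ± 4.87 at 3 d. The cuticle protein gene Cpr65Au rose by 1.46 in null and fell by 0.28 in wild type. CG11211 rose by 1.39 in null and fell by 0.40 in wild type, and stood at 68.2 ± 15.5 units in 20 d null and 15.7 ± 1.39 in 3 d null.

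Gene families were then described by how many of their measured members were called, to be read against the 33.8% of all genes that rose, the 26.4% that fell and the median change of 0.03. Members and lists were chosen with earlier results of these data known, so the counts are descriptions and not tests. Innate immune genes rose widely. In flies the Toll and Imd pathways sense bacterial and fungal cell walls and switch on antimicrobial peptides and other effectors, many of them made by fat body and blood cells. All 15 tested genes of the bomanins and other immune-induced effectors rose, with a median change of 0.98, and 7 of them at least 2-fold. Of the 15, edin passed the filter only through 20 d null arrays, and had to be higher there. Listericin, which encodes an immune-induced antibacterial protein, had 215, 186, 202, 176 and 225 units in 20 d null, against 15.5, 21.7, 17.7, 14.7 and 14.3 in 3 d null. The ages did not overlap, and the rise of 2.73 ± 0.07 exceeded that of 1.79 ± 0.07 in wild type (interaction adjusted p = 2.53e-07 by limma). The bomanin gene BomT2 was at 276 ± 12.4 in 20 d null and 95.2 ± 6.15 in 3 d null, a rise of 1.39 ± 0.07, and the pherokine gene Phk-3 rose by 1.32 ± 0.04. In wild type 14 of the 15 rose and 1 fell, the stress-induced humoral factor gene TotC, named like edin after its values were seen.

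Of 6 antimicrobial peptide genes tested, 5 rose and 1 fell. DptB, a diptericin that acts against Gram-negative bacteria, had 319.7, 377, 479, 347 and 426 units in 20 d null, against 85.6, 85.4, 152, 82.2 and 111 in 3 d null. Every old array exceeded every young one, with more scatter than for most genes, and DptB rose by 1.78 ± 0.15, less than the 3.53 ± 0.15 of wild type (interaction adjusted p = 3.62e-06 by limma). Mtk, the antifungal metchnikowin, rose by 1.73 ± 0.05 and the cecropin gene CecB by 0.99 ± 0.07. The exception was Drs, the antifungal drosomycin, a target of the Toll pathway. It had 201, 209, 218, 221 and 232 units in 20 d null, against 497, 499.9, 502, 568 and 496 in 3 d null. The arrays did not overlap, the change was -1.19 ± 0.05, and wild type rose by 0.28 ± 0.05 (interaction adjusted p = 7.52e-14 by limma).

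In the list of peptidoglycan recognition proteins and Toll and Imd pathway genes 20 of 31 rose and 5 fell, with a median of 0.31. pirk, which dampens the Imd pathway, rose by 1.62 ± 0.06. PGRP-SB1, an amidase that cuts peptidoglycan, rose by 1.40 ± 0.06 and GNBP3, a sensor of fungal glucans, by 1.38 ± 0.04. The amidase gene PGRP-SC2 went down, at 34.9 ± 4.24 in 20 d null and 82.0 ± 2.14 in 3 d null, a change of -0.95 ± 0.06, where wild type rose by 0.90 ± 0.06. The protease gene grass of the Toll pathway fell by 0.60 ± 0.07 in null and rose by 0.24 ± 0.07 in wild type.

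Haemocytes are the blood cells of the fly and make thioester proteins, scavenger receptors, clotting factors and much of the collagen of basement membranes. Of 33 genes tested in this list, 24 rose and 6 fell in null, with a median of 0.72, and 26 rose and 5 fell in wild type. The thioester protein gene Tep4 was at 268 ± 10.4 in 20 d null and 69.6 ± 4.96 in 3 d null, a rise of 1.73 ± 0.05. The scavenger receptor gene Sr-CI rose by 1.71 ± 0.06 and Sp7, a protease of melanisation, by 1.60 ± 0.04. The haemocyte marker Hml stood at 143 ± 18.4 in 20 d null and 56.7 ± 10.2 in 3 d null. Of the 6 falls, 3 were of the collagen IV genes vkg and Col4a1 and the peroxidasin gene Pxn, and the others were of the Nimrod receptor gene NimB4 (-0.21) and the ferritin genes Fer1HCH (-0.14) and Fer2LCH (-0.12), these last named after their values were seen. vkg fell by 0.49 ± 0.03, Col4a1 fell by 0.41 ± 0.05 and Pxn fell by 0.33 ± 0.04. In wild type vkg fell by 0.85 ± 0.03 and Col4a1 fell by 1.06 ± 0.05, both by more (interaction adjusted p = 1.88e-06 and 9.21e-08 by limma). Summed over the 39 members on the array, the signal was 12490 to 13510 units in 20 d null and 10770 to 11770 in 3 d null.

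Stress genes were split. Among 25 heat shock proteins and chaperones 7 rose and 7 fell. This balance turned with the scaling, to 9 higher and 4 lower after quantile normalization and 5 higher and 8 lower after median centring. Hsp68, an inducible member of the Hsp70 family, had 157, 133, 132, 186 and 214 units in 20 d null, against 46.4, 44.3, 34.3, 36.0 and 45.4 in 3 d null. The old arrays were scattered but all above the young ones, and the rise was 1.64 ± 0.10. The small heat shock gene Hsp26 rose by 1.15 ± 0.06 in null and 0.36 ± 0.06 in wild type. Hsp27, another of this class, rose by 1.07 ± 0.06 in null, while wild type showed 0.07 ± 0.06 and no call (adjusted p = 0.314 by limma). The interaction was 0.99 ± 0.09 (adjusted p = 3.13e-09 by limma). The falls were of Hsc70-1 (-0.96), the mitochondrial chaperone gene Trap1 (-0.29) and Droj2 (-0.22), among others. Of 26 cell death and DNA damage genes 14 rose and 6 fell, with a median of 0.20. Gadd45, a stress gene upstream of kinase signalling, was at 145 ± 6.20 in 20 d null and 38.4 ± 4.87 in 3 d null, a rise of 1.57 ± 0.06 that exceeded the 0.57 ± 0.06 of wild type. Irbp, which encodes a Ku protein of DNA end joining, rose by 1.22 ± 0.07 and Traf4 by 0.91 ± 0.08. The tumour necrosis factor gene egr fell by 0.34 ± 0.03 and rose by 0.27 ± 0.03 in wild type.

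Detoxification genes rose in most families. Cytochromes P450 oxidise foreign compounds, hormones and lipids, and 35 of 52 rose while 8 fell, with a median of 0.49. Cyp6g1, known for insecticide resistance, had 671, 634, 627, 651 and 667 units in 20 d null, against 191, 193, 189.9, 179 and 179 in 3 d null. The arrays of each age were tightly grouped and far apart, and the rise was 1.72 ± 0.04, against 2.30 ± 0.04 in wild type. Cyp309a1 rose by 1.60 ± 0.08 and Cyp6g2 by 1.53 ± 0.05, whereas Cyp4ae1 fell by 0.82 ± 0.05 and Cyp305a1 fell by 0.66 ± 0.05. The interaction was lower for 21 of the 52 and higher for 4, against 10.2% and 7.75% of all genes. After median centring of the arrays it was lower for 18 and higher for 11, and without array 1 of 3 d null it was higher for 2.

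Of 30 glutathione transferase genes 17 rose and 5 fell, or 3 fell without array 3 of 20 d null or without array 1 of 3 d null. GstE9 was at 334 ± 8.16 in 20 d null and 86.1 ± 6.46 in 3 d null, a rise of 1.78 ± 0.04, and GstD2 rose by 1.59 ± 0.09. GstT4 fell by 0.21 ± 0.04 in null and rose by 1.31 ± 0.04 in wild type (interaction adjusted p = 4.95e-16 by limma). UDP-glycosyltransferases, which attach sugars to lipophilic compounds, rose in 10 of 14 and fell in none. Ugt35A1 was at 147 ± 4.21 in 20 d null and 59.2 ± 2.31 in 3 d null, a rise of 1.12 ± 0.06, where wild type showed -0.09 ± 0.06. Antioxidant genes did not share this direction: 6 of 26 rose and 11 fell, or 7 and 7 after quantile normalization. Of the 11, 1 would have failed the filter without the 3 d null arrays and had to be lower at 20 d. cnc, the transcription factor gene that drives many of them, rose by 0.40 ± 0.04, and the superoxide dismutase genes Sod2 and Sod3 changed by -0.41 ± 0.05 and -0.25 ± 0.04.

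Fat body, the liver-like tissue of the fly, also surrounds the brain in the head. Of 21 fat body and yolk genes 14 rose and 4 fell, with a median of 0.36, and the summed signal of the 24 members on the array was 12640 to 13190 units in 20 d null and 9958 to 10080 in 3 d null. The groups did not overlap, and the part of fat body content in the changes was not tested. In wild type 18 of the 21 rose and 2 fell, or 14 and 3 after median centring. The summed signal there was 14590 to 15280 units at 20 d and 11440 to 11720 at 3 d. Besides Gnmt, Cyp6a23 rose by 1.36 ± 0.05. The yolk protein gene Yp3 was dim and fell, at 12.2 ± 2.87 in 20 d null and 18.1 ± 3.51 in 3 d null. Genes of lipid and amino acid breakdown rose in 26 of 36 members and fell in 5, of which mag, given above, had to be lower at 20 d. Sodh1, a sorbitol dehydrogenase gene, rose by 1.26 ± 0.04, and Shmt, whose enzyme passes carbon units between serine and glycine, by 1.25 ± 0.07. The proline enzyme genes P5cr and P5CDh1 changed by -0.43 ± 0.05 and -0.33 ± 0.07.

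Oenocytes make the hydrocarbons of the cuticle. In null 12 of 27 oenocyte and fatty acid synthesis genes rose and 5 fell, while in wild type 19 rose and 2 fell, and the interaction was lower for 14 and higher for 1. Median centring gave 16 higher and 5 lower in wild type, and an interaction lower for 12 and higher for 2, with a median of -0.04 against -0.16 without centring. The interaction was also higher for 2 after quantile normalization, and without array 4 of 20 d null, array 5 of 3 d null, array 2 or 4 of 20 d wild type or array 1 of 3 d wild type. Cyp4g1, the P450 of hydrocarbon synthesis, was at 96.7 ± 13.9 in 20 d null and 47.7 ± 7.27 in 3 d null, whereas wild type had 1600 ± 57.7 at 20 d and 67.6 ± 9.06 at 3 d. Old null brains thus lacked most of the signal that old wild-type brains had, and the interaction was -3.46 ± 0.12 (adjusted p = 4.15e-17 by limma). bond, a fatty acid elongase gene, fell by 0.31 ± 0.04 in null and rose by 0.79 ± 0.04 in wild type. The triglyceride synthesis genes mdy and Lpin rose by 0.65 ± 0.04 and 0.61 ± 0.06 in null. The summed signal of the 38 members on the array was 11320 to 11780 units in 20 d null, 10560 to 10870 in 3 d null, 13470 to 13740 in 20 d wild type and 9740 to 10030 in 3 d wild type, and its part in these changes was not tested.

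Among hormone genes of metabolism, Lst and Akh rose in both lines. Lst encodes limostatin, a hormone that restrains insulin release. It had 477, 538, 539, 513 and 595 units in 20 d null, against 86.2, 91.5, 121, 99.9 and 127 in 3 d null. The ages did not overlap, and Lst rose by 2.19 ± 0.09 in null and 2.73 ± 0.09 in wild type. Akh, the adipokinetic hormone gene of the corpora cardiaca, which are attached to the brain, rose by 0.68 ± 0.05. The insulin-like peptide gene Ilp5 was at 710.0 ± 29.7 in 20 d null and 836 ± 31.3 in 3 d null, a change of -0.23 ± 0.04, where wild type rose by 0.24 ± 0.04 (interaction adjusted p = 1.11e-07 by limma). The insulin receptor gene InR was dim and rose by 0.61 ± 0.11. In the whole list of insulin, adipokinetic hormone and TOR genes 12 of 28 rose and 5 fell.

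**Figure D3:**
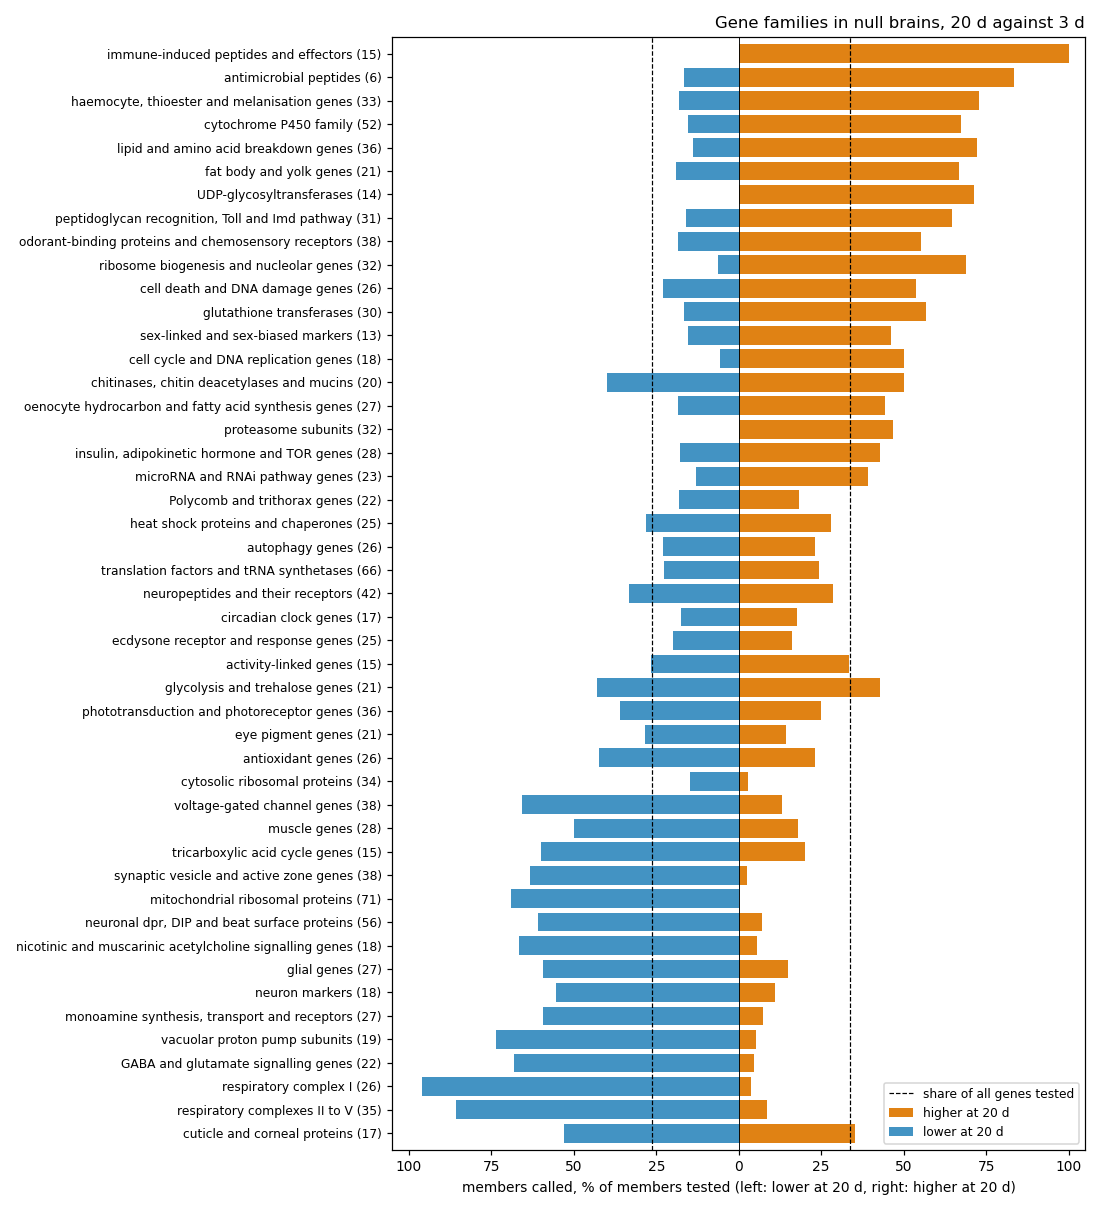
Share of tested members called higher (right, orange) or lower (left, blue) at 20 d in null for 47 gene families, ordered by median change, with the number of members tested beside each name and dashed lines at the shares of all 7704 genes. Digestive enzymes are not drawn. Immune-induced effectors reach 100% higher, and respiratory complex I reaches 96.2% lower.

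The respiratory chain fell almost throughout. Of 26 genes for subunits and assembly of complex I 25 fell and 1, ND-B12, rose, with a median change of -0.29. ND-18 had 547, 488, 528, 532 and 514 units in 20 d null, against 831, 837, 797, 757 and 658 in 3 d null. All old arrays were below all young ones, and the change was -0.55 ± 0.05, with -0.58 ± 0.05 in wild type. ND-B16.6 fell by 0.42 ± 0.05 and ND-B17 fell by 0.41 ± 0.03. Of 35 genes of complexes II to V 30 fell and 3 rose. COX5B, a subunit of cytochrome c oxidase, was at 951 ± 58.6 in 20 d null and 1240 ± 109.5 in 3 d null, a change of -0.38 ± 0.05, and ox, a subunit of complex III, fell by 0.38 ± 0.04. The largest fall, of COX7AL2 (-1.19), and the rises of COX4L (0.78) and COX7AL (0.67), were of variant forms of oxidase subunits. After quantile normalization 22 of the 26 were lower and none higher, so the rise of ND-B12 was lost, and the median was -0.16 for complex I and -0.15 for the other complexes. The interaction was called for none of the 26 (1 after quantile normalization or without array 2 of 20 d null) and for 4 of the 35, or for 5 and 7 after median centring, all higher but 1. In wild type 25 of the 26 and 32 of the 35 fell.

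Other mitochondrial and proton-pumping machinery fell too. Of 71 mitochondrial ribosomal protein genes 49 fell and none rose, with mRpL27 (-0.42), mRpS14 (-0.40) and mRpL54 (-0.38) lowest. In wild type 60 of the 71 fell, and the interaction was higher for 12 and lower for 1. It was higher for 9 after quantile normalization, 31 after median centring and 7 to 12 with 1 array left out. Of 15 genes of the tricarboxylic acid cycle 9 fell and 3 rose: the aconitase gene mAcon1 fell by 0.36 ± 0.04, and Pdk, the kinase that shuts off pyruvate dehydrogenase, rose by 0.41 ± 0.06. The vacuolar proton pump acidifies lysosomes and loads synaptic vesicles, and 14 of 19 of its genes fell and 1 rose, with Vha36-1 at -0.37 and Vha14-1 at -0.36. Glycolysis and trehalose genes were even, at 9 higher and 9 lower of 21, or 11 and 6 after quantile normalization. The trehalose synthesis gene Tps1 rose by 0.90 ± 0.04, while Gpdh1 fell by 0.54 ± 0.04. Another probe set of Gpdh1 was not called, at 0.15 (adjusted p = 0.325 by limma).

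Genes of protein synthesis and turnover were mixed. Nucleolar and ribosome biogenesis genes rose in 22 of 32 members and fell in 2, with a median of 0.22, against 13 higher and 6 lower in wild type. In wild type this split turned with the scaling, to 4 higher and 10 lower after quantile normalization. The interaction was higher for 8 of the 32 and lower for none, or higher for 18 after median centring and for 5 without array 4 of 20 d wild type. Nop60B, a pseudouridine synthase of ribosomal RNA, was at 289 ± 17.8 in 20 d null and 164 ± 4.17 in 3 d null, a rise of 0.76 ± 0.04, and Fib, fibrillarin, rose by 0.49 ± 0.06. After quantile normalization 15 were higher and 3 lower, with a median of 0.11. Of 66 translation factor and tRNA synthetase genes 16 rose and 15 fell, led by the initiation factor genes eIF4E6 (1.35), eIF2beta (0.70) and eIF6 (0.61). Of 34 cytosolic ribosomal protein genes 1 rose and 5 fell, but 16 rose and none fell after quantile normalization, and leaving out 1 array gave from 1 to 17 lower, so no direction is given for them. Without array 1 of 20 d null 17 were lower, without array 5 of 3 d null 15, and without any other null array except array 3 of 3 d null 1 to 3. Of 32 proteasome genes 15 rose and none fell, with Prosalpha3 at 0.24 ± 0.03, and median centring of the arrays left 8 higher and 1 lower. Autophagy genes were even at 6 and 6 of 26, and Mitf, the transcription factor gene of lysosome biogenesis, rose by 0.87 ± 0.04.

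Most neuronal families held more falls than rises. Of 18 markers of neurons themselves 10 were lower and 2 higher (none after median centring), with a summed signal of 13650 to 17190 units in 20 d null and 16220 to 18700 in 3 d null, ranges that overlap. Of 38 genes of synaptic vesicles and active zones 24 fell and 1 rose, with a median of -0.18. Rop, the fly Munc18 protein needed for vesicle fusion, was at 321 ± 23.8 in 20 d null and 509.8 ± 16.3 in 3 d null, a change of -0.64 ± 0.04, and the complexin gene cpx fell by 0.36 ± 0.09, with overlapping arrays. A second probe set of cpx was not called, at -0.18 (adjusted p = 0.228 by limma). Of 38 voltage-gated and related channel genes 25 fell and 5 rose, among them the potassium channel gene Irk2 (-0.40) and unc80 (-0.41), and the rise was largest for Irk1 (0.60). After quantile normalization 16 synaptic genes and 18 channel genes were lower, and 3 channel genes higher. Of 56 cell surface genes of the dpr, DIP, beat and Dscam families, which help neurons recognise partners, 34 fell and 4 rose, with DIP-theta lowest at -0.66. In wild type 24 of 38 synaptic, 23 of 38 channel and 33 of 56 surface genes fell.

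Transmitter systems also held more falls than rises. Of 22 GABA and glutamate genes 15 fell and 1 rose. Gat, the GABA transporter of glia, had 333, 338, 359.8, 289.9 and 306 units in 20 d null, against 652, 641, 672, 691 and 639.7 in 3 d null. No old array reached the level of a young one, with a change of -0.99 ± 0.06 in null and -0.88 ± 0.06 in wild type. VGAT, which loads GABA into vesicles, fell by 0.58 ± 0.05. Acetylcholine genes fell in 12 of 18 and rose in 1, with the synthesis gene ChAT at -0.35 and the receptor subunit gene nAChRbeta1 at -0.36. The single rise was that of nAChRbeta3, at 181 ± 4.08 in 20 d null and 42.3 ± 5.76 in 3 d null, an increase of 1.76 ± 0.05, smaller than the 2.56 ± 0.05 of wild type. Monoamine genes fell in 16 of 27 and rose in 2, or 1 after quantile normalization. e and speck, whose enzymes conjugate and acetylate amines, changed by -0.80 ± 0.05 and -0.78 ± 0.04, and the serotonin transporter gene SerT fell by 0.56 ± 0.06. In wild type e fell by 0.35 ± 0.05, which was less (interaction adjusted p = 4.34e-05 by limma).

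Neuropeptides and their receptors were even, at 12 higher and 14 lower of 42. Nplp3, a neuropeptide-like precursor gene, was by far the lowest, at 52.8 ± 5.07 in 20 d null and 359 ± 11.6 in 3 d null, a change of -2.45 ± 0.05. Mip and NPF, genes of the myoinhibitory peptides and neuropeptide F, rose by 0.51 ± 0.04 and 0.46 ± 0.04. Of 17 clock genes 3 rose (1 after median centring) and 3 fell. tim, whose protein pairs with that of per, had 236, 234, 259.7, 255 and 239 units in 20 d null, against 444, 446, 443, 437 and 403 in 3 d null. The groups lay clear of each other, and tim fell by 0.79 ± 0.05. In wild type it fell by 0.28 ± 0.05, which was less (interaction adjusted p = 2.69e-06 by limma).

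Of 27 glial genes 16 fell and 4 rose, with a median of -0.22, or -0.14 after quantile normalization. In wild type 15 fell and 7 rose, or 19 and 3 after median centring. The interaction was lower for 8 and higher for 3, or 5 and 9 after median centring. The summed glial signal over 28 members was 19600 to 20260 units in 20 d null and 22790 to 24100 in 3 d null, without overlap. Its part in the falls of Gat and e, which both belong to this list, was not tested. The gap junction gene Inx2 fell by 0.60 ± 0.05. Gli, a septate junction gene of the blood-brain barrier, went up, at 199 ± 11.2 in 20 d null and 98.9 ± 9.66 in 3 d null, a rise of 0.91 ± 0.06 that exceeded the 0.46 ± 0.06 of wild type. Indy, a citrate transporter gene, rose by 0.63 ± 0.06.

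**Figure D4:**
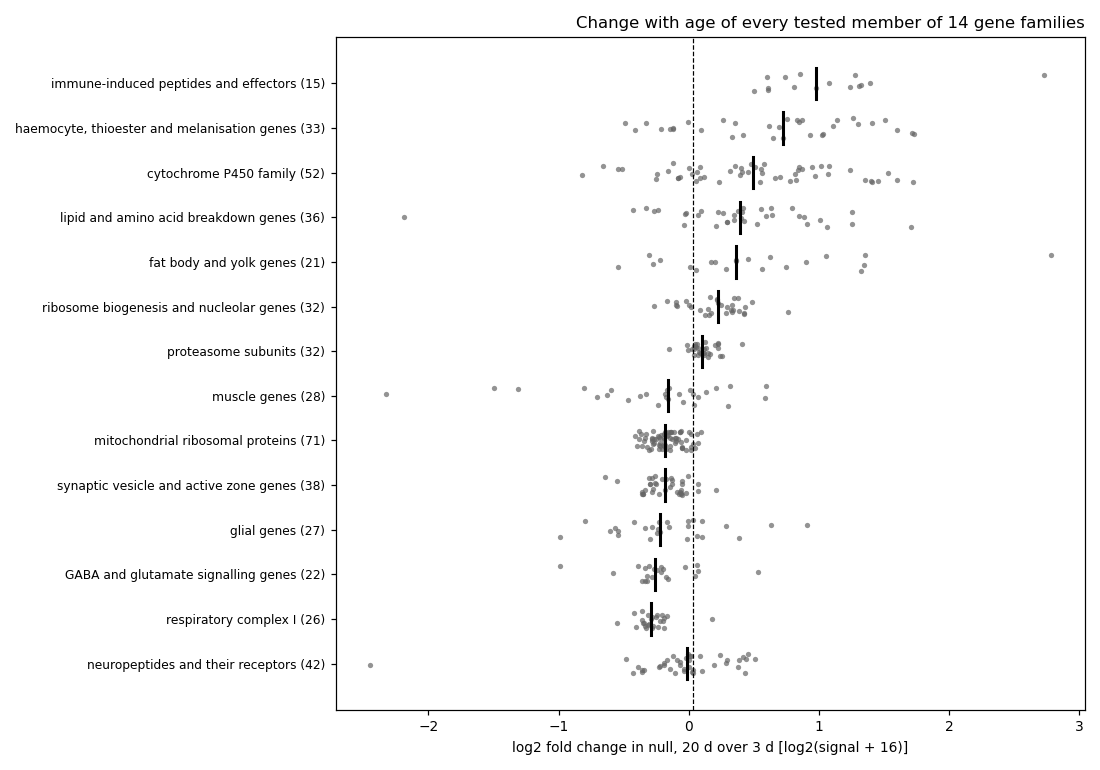
Log2 fold change, 20 d over 3 d in null, of every tested member of 14 gene families, 1 point a gene, with a black bar at the family median and a dashed line at the median of all 7704 genes (0.03). Complex I and mitochondrial ribosomal proteins lie in a narrow band below 0, while P450, haemocyte and neuropeptide genes spread more widely.

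Genes of the eye and of smell mark tissues that border the brain. Of 36 photoreceptor genes 9 rose and 13 fell, and the summed signal over 40 members was 16660 to 17370 units in 20 d null and 18530 to 18900 in 3 d null. ninaB, which makes the chromophore of rhodopsin, fell by 0.64 ± 0.04, the photoreceptor surface gene chp fell by 0.44 ± 0.05, and the channel gene trpl rose by 0.38 ± 0.05. Of 21 eye pigment genes 3 rose, or 5 without array 1 of 20 d null, and 6 fell. Of 38 odorant-binding protein and chemosensory receptor genes that passed the filter, out of 223 on the array, 21 rose and 7 fell. Of the 38, 3 would have failed the filter without the 20 d null arrays and had to be higher there. Obp56g was at 86.8 ± 7.17 in 20 d null and 8.66 ± 2.39 in 3 d null, a difference of 2.06. It is 1 of these 3, and wild type had 7.55 ± 2.26 at 20 d and 4.57 ± 1.46 at 3 d. Obp99b and Obp19d rose by 1.35 ± 0.04 and 1.09 ± 0.03, and the receptor gene Or63a fell by 0.52 ± 0.04.

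Muscle genes set the lines apart. In null 14 of 28 fell and 5 rose, with a median of -0.16, whereas in wild type 6 fell and 15 rose, with a median of 0.26, and the interaction was lower for 18 and higher for 1. Quantile normalization gave 10 lower and 13 higher in wild type, with a median of 0.06, and an interaction lower for 18 and higher for 2. Median centring gave 11 lower and 13 higher in wild type, with a median of 0.10. The interaction was then lower for 14 and higher for 2, with a median of -0.29 against -0.41 without centring. Without array 1 of 20 d null the interaction was higher for 2. The troponin C gene TpnC41C was above 100 units only in the young null arrays, and fell by 2.33 ± 0.06 in null, with -0.80 ± 0.06 in wild type. Act88F, the actin of the indirect flight muscle, was at 31.6 ± 3.43 in 20 d null and 102 ± 2.54 in 3 d null, a change of -1.31 ± 0.06, with -1.53 ± 0.06 in wild type. Act79B, another muscle actin gene, rose by 0.59 ± 0.04. Summed over 31 members, the signal was 7075 to 7559 units in 20 d null, 8140 to 8642 in 3 d null, 7199 to 7596 in 20 d wild type and 6835 to 7151 in 3 d wild type. The 3 d null arrays were thus the highest, and the part of muscle content in these changes was not tested.

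Genes of chitin and mucin also differed. Of 20 tested 10 rose and 8 fell in null, while 16 rose and 2 fell in wild type, and the interaction was lower for 9 and higher for 2, or 6 after median centring. The imaginal disc growth factor gene Idgf1 was at 615 ± 45.0 in 20 d null and 149 ± 10.7 in 3 d null, a rise of 1.94 ± 0.05, and the chitin synthase gene Chs2 rose by 1.72 ± 0.07. Besides Muc68D, the chitinase gene Cht9 fell by 2.42 ± 0.05 in null and rose by 1.18 ± 0.05 in wild type, and Mur29B fell by 1.82 ± 0.07 and rose by 1.26 ± 0.07. Of 17 cuticle and corneal protein genes 6 rose and 9 fell. retinin, a protein of the corneal lens, was at 51.9 ± 2.64 in 20 d null and 163 ± 5.37 in 3 d null, a change of -1.40 ± 0.05 that was smaller in size than the -3.05 ± 0.05 of wild type (interaction adjusted p = 1.32e-15 by limma).

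**Figure D5:**
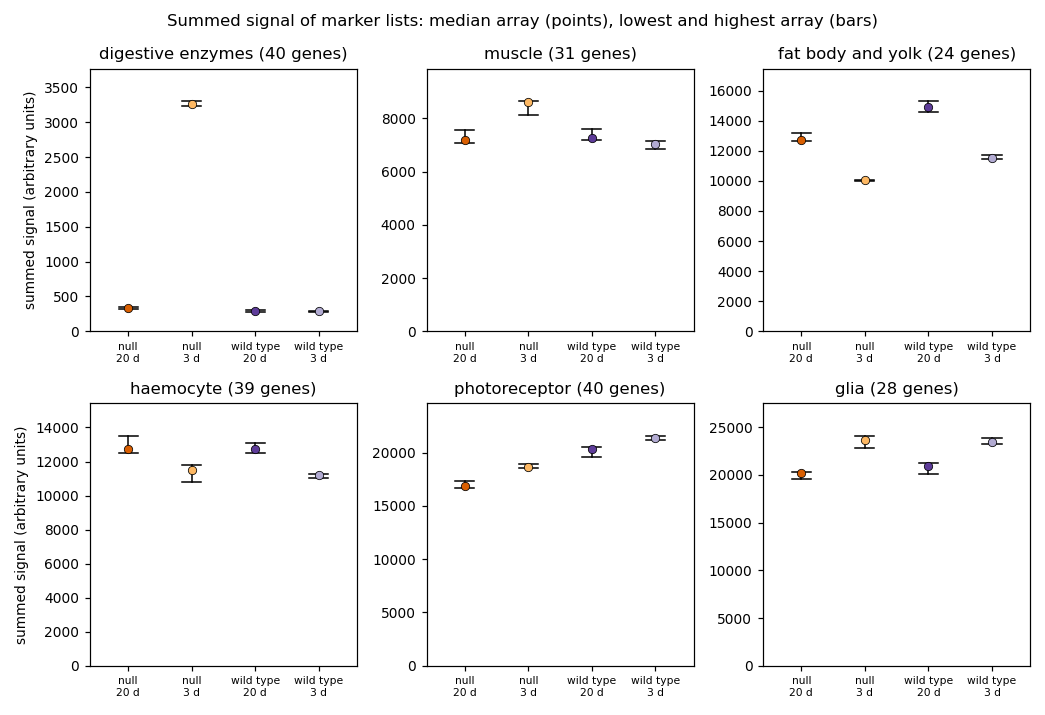
Summed signal of 6 marker lists in arbitrary units, with the median array as a point, a bar from the lowest to the highest of 5 arrays, axes that start at 0, and 20 d null, 3 d null, 20 d wild type and 3 d wild type from left to right. Digestive enzymes stand at 3240 to 3300 units in 3 d null and at 276 to 347 in the others.

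Regulatory families were read against the 60.2% of all genes called in either direction. Of 22 Polycomb and trithorax genes 4 rose, or 7 without array 1 of 20 d null, and 4 fell, with trx at 0.27 and Psc at -0.43. Of 23 genes of the microRNA and RNA interference pathways 9 rose and 3 fell (1 after quantile normalization), with Tudor-SN, which encodes a nuclease of the silencing complex, at 0.35 ± 0.03. Of 25 ecdysone receptor and response genes 4 rose and 5 fell, with ImpE1 at -0.43 and the steroid synthesis gene spok at 0.79, which passed the filter only through 20 d null arrays. Eip74EF, a known target of miR-34 in the fly, was not analysed here. Of 18 cell cycle and DNA replication genes 9 rose and 1 fell, or 5 and 2 after quantile normalization, with Cdk4 (0.49), RnrL (0.49) and Rbf (0.43) highest. Of 13 markers of sex 6 rose and 2 fell, and fit, a female-biased fat body gene, rose by 1.32 ± 0.05 in null and 2.02 ± 0.05 in wild type.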

How the data were processed

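Brain RNA of 20 samples was measured on Affymetrix Drosophila 2 arrays. The submitters' processing notes name MAS5 and GCRMA, without version or role. The deposited values are linear signal intensities, at 0.0116 to 4061.7 units, and each array had a trimmed mean of 150 with 2% left out at either end. Nothing was normalized further. No genome coordinates were used.

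Log2(signal + 16) was fitted in limma 3.58.1 (R 4.3.3) with a mean for each of the 4 groups over all 20 arrays, which share 1 estimate of the spread, and eBayes with trend and robust settings. The ageing contrasts and their difference were adjusted by Benjamini-Hochberg over 9806 probe sets, those above the array median in at least 5 arrays. The fit was also run on simulated data with fewer changed probe sets than were called here, and no support is read from that run.

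Of 18769 probe sets that are not controls, 13646 have 1 gene symbol in GEO's platform annotation, 402 have several and 4721 have none, and 13543 of the first were matched by gene ID to the RefSeq gene table. Only probe sets with 1 symbol were named. Of 514 genes with more than 1 probe set tested, 25 had probe sets called in opposite directions, none of them named here by the rule that follows.

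Genes were named by rule: the 10 highest and 10 lowest changes of null whose arrays do not overlap, the 5 highest and 5 lowest interactions, the 5 largest interactions among genes called in opposite directions in either order, and up to 3 highest and 3 lowest called members of each list. edin, TotC, NimB4, Fer1HCH and Fer2LCH, and the tissue markers elav, repo and Hml, were named besides, after their values were seen. The 48 gene lists were written by family, and members and lists were chosen with earlier results of these data known. Of 1286 listed names 59 had no match.

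No batch is named in the labels. Alternatives were pseudocounts of 1 and 64, no filter, a filter on the mean, quantile normalization, median centring, null arrays only, a replicate block, plain eBayes and leaving out each array.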

Additional observations from a re-analysis of the deposited data

Results flagged for a closer look

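Between the lines, the change with age differed by the limma interaction for 597 genes in the higher and 784 in the lower direction, and 104 of the 162 genes named above were among them. Values are log2 and subtract the wild-type change from the null change. Of the genes below, CG3088, CG14419, Obp56g, edin and spok passed the filter only through 20 d null arrays. mag passed it only through 3 d null arrays, as did 11 of the 16 tested digestive enzyme genes, mag among them. For such genes the filter favoured the sign of the interaction, so no support is read from it. Differences under -3 were those of CG14125 (-5.37), Jon99Fi (-5.22), CG5506 (-5.15), CG5399 (-5.00), CG11672 (-4.69), Jon25Biii (-4.22), CG3819 (-4.08), Muc68D (-3.60), Cht9 (-3.59), Cyp4g1 (-3.46), CG8562 (-3.21), Mur29B (-3.09) and alphaTry (-3.03). Between -3 and -1 stood yip7 (-2.79), mag (-2.36), CG11458 (-2.31), Jon65Aiii (-2.08), PGRP-SC2 (-1.85), DptB (-1.74), GstT4 (-1.52), TpnC41C (-1.52), Drs (-1.47), bond (-1.10) and PGRP-SB1 (-1.07). Between -1 and 0 stood Mtk (-0.87), grass (-0.84), Yp3 (-0.79), nAChRbeta3 (-0.79), fit (-0.69), Cyp305a1 (-0.63), Hsc70-1 (-0.63), COX7AL2 (-0.61), egr (-0.61), Cyp6g1 (-0.58), NimB4 (-0.58), Lst (-0.54), tim (-0.51), Cyp309a1 (-0.50), CG4408 (-0.49), Ilp5 (-0.47), e (-0.45), Sodh1 (-0.44), Tps1 (-0.44), COX7AL (-0.43), Akh (-0.42), Cyp6a23 (-0.41), Cyp6g2 (-0.41), ninaB (-0.36), Sardh (-0.34), ImpE1 (-0.31), Or63a (-0.30), Inx2 (-0.28), DIP-theta (-0.27), speck (-0.26), Phk-3 (-0.24), chp (-0.24) and Irk2 (-0.18). Higher changes in null by less than 1 were those of NPF (0.18), Tudor-SN (0.18), Mip (0.20), Tep4 (0.24), Nop60B (0.30), Obp99b (0.31), Rbf (0.31), eIF6 (0.31), Fib (0.32), Indy (0.32), Act79B (0.33), vkg (0.36), COX4L (0.38), eIF2beta (0.41), Gli (0.45), GstD2 (0.45), pirk (0.45), edin (0.48), Traf4 (0.49), spok (0.50), Sp7 (0.51), Irbp (0.54), Obp19d (0.55), Hsp68 (0.61), Nplp3 (0.62), Col4a1 (0.65), Hr38 (0.66), Hsp26 (0.79), Ance-3 (0.89), Listericin (0.94), Chs2 (0.95) and Hsp27 (0.99). Higher changes by 1 or more were those of Gadd45 (1.00), TotC (1.20), Ugt35A1 (1.21), Arc2 (1.26), retinin (1.65), Cpr65Au (1.73), Gnmt (1.76), CG11211 (1.79), Obp56g (1.87), CG8620 (1.97), CG14419 (2.25), Obp83b (2.32), CG9377 (2.53), CG8343 (2.90) and CG3088 (4.39). Of these, the calls of Sardh, COX7AL and ImpE1 were lost after quantile normalization and after median centring. They are not the only interactions that depend on the settings, as counted below.

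Of 362 groups of 5 arrays behind the signals and summed signals named above, 24 held an array that stood apart from the other 4 by more than the 95% critical value of Dixon's test, where chance gives about 1 in 20. In 20 d null the highest array stood apart for CG11211 (95.7, next 64.3), COX4L (60.1, next 45.1), COX5B (1054, next 938), Fer1HCH (2269, next 1888), Fer2LCH (2299, next 2043), Jon25Biii (8.61, next 5.34) and speck (686, next 646) units, and the lowest for grass (41.4, next 53.4) and retinin (47.2, next 52.5) units. In 3 d null the highest array stood apart for Act79B (343, next 326), CG3819 (512, next 484), DIP-theta (506, next 481), Drs (568, next 502) and Hsc70-1 (70.1, next 61.8) units, and the lowest for Akh (742, next 822), Irk2 (925, next 998), Jon25Biii (314, next 332), Sod2 (999, next 1121), VGAT (356, next 400), eIF6 (141, next 162) and tim (403, next 437) units. The summed glial signal of 20 d null had a lowest array at 19600 (next 20220), that of muscle in 3 d null a lowest array at 8140 (next 8509), and that of muscle in 20 d wild type a highest array at 7596 (next 7294). Array 5 of 3 d null held 6 of the 24, more than any other array.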

How the results depend on the processing

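Over probe sets, 3142 were higher and 2550 lower in 20 d null than in 3 d null. Quantile normalization gave 2600 higher and 3000 lower, and median centring 2634 and 2935. Leaving out 1 array gave 2997 to 3187 higher and 2404 to 2582 lower, and for the interaction 643 to 827 higher and 859 to 939 lower, against 746 and 920 with all arrays. Median centring gave 2623 higher and 556 lower interactions and moved the median interaction to 0.13. Quantile normalization gave 982 and 908, with a median of 0.02, and no filter 745 and 1165; the cause was not tested. Of 262 genes named by the rule, 236 kept direction and call of the change in null under every alternative that could be run for them. For the interaction 201 of the 262 did so, and 61 changed call or direction under at least 1 alternative. The interaction of Cpr49Ag turned to -0.22 with a pseudocount of 1, and the change of RpL41 in null to 0.01 after quantile normalization; the cause was not tested. Whether the repeat numbers of the labels pair the arrays is not settled, and they were not treated as pairs: the deviations of 20 d null and 3 d null arrays of 1 number correlated at 0.55, -0.10, 0.17, 0.11 and 0.37, and 2 of 5 arrays of 20 d null and 3 of 5 of 3 d null correlated best with their own number. The replicate block gave 3224 higher and 2675 lower, and 765 and 951 for the interaction. Signals are arbitrary units without a detection call, so dim genes are limited by background.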
